A study of Homo sapiens with 2 samples.

Results

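The genes described here were 8 regulators of apoptosis, XIAP, BIRC2, BIRC3, BIRC6, DIABLO, APAF1, CASP8 and CASP9. They were found by gene name alone, in a set proposed with earlier results of these data known, and 9 rows of the 58735 in the deposited table carry these names, because DIABLO is listed under 2 gene identifiers. RNA-Seq was performed on SF-539 cells, a human glioblastoma (GBM) line, with 1 library per condition. The shControl cells carried a pGIPZ control lentivirus and the shFKBP9 cells a lentivirus expressing an shRNA against FKBP9, which encodes a peptidyl-prolyl isomerase of the endoplasmic reticulum. Both were stable cells selected with puromycin, at passages 15 to 18, and were grown in DMEM with fetal bovine serum. Whether a library came from 1 clone or from several is not given in the sources used here, nor is which of the study's FKBP9 shRNAs was used. XIAP was among the survival proteins that the study assayed by immunoblot in these cells, and the values given here are of RNA alone.

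Caspases are proteases that dismantle a dying cell. Initiator caspases are activated on scaffolds, CASP8 at death receptors and CASP9 on the apoptosome built by APAF1 and cytochrome c, and they cleave and so activate the executioner caspases. Inhibitor of apoptosis proteins (IAPs) carry BIR domains and mostly act as ubiquitin ligases: XIAP binds and blocks caspases directly, BIRC2 (cIAP1) and BIRC3 (cIAP2) ubiquitinate proteins of TNF receptor signalling, and BIRC6 is a very large protein that joins ubiquitin to its targets. DIABLO (Smac) is released from mitochondria and displaces caspases from IAPs. The working name of the set speaks of executioner caspases, but its caspases, CASP8 and CASP9, are both initiators. It is therefore described here as the 4 IAPs, the IAP antagonist DIABLO, the apoptosome pair APAF1 and CASP9, and CASP8.

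Values are FPKM, fragments scaled by gene length and by a library size close to, but not equal to, the fragments that the library held on genes. The libraries held 18116873 fragments on genes in shControl and 17158514 in shFKBP9, and the fragments of each gene could be recovered from its FPKM. Intervals are exact 95% intervals of these fragments. They cover counting error only, and since there is no replicate in either condition no test between the conditions was made. FKBP9, the target of the shRNA, was at 49.8 FPKM in shControl and 4.68 FPKM in shFKBP9, which is 9.39% of the control value. Of 8 glioma and glial markers, 4 reached 1 FPKM (VIM, CD44, CHI3L1 and NES), whereas the defining glial genes GFAP, OLIG2, SOX2 and S100B stayed under 1 FPKM in both libraries. The label calls the cells epithelial, but EPCAM was at 0.241 FPKM in shControl and 0.324 FPKM in shFKBP9, 1 of 5 epithelial markers (KRT8) reached 1 FPKM, and all 4 mesenchymal markers did. Of the markers of other cell types, 0 of 4 immune, 0 of 3 endothelial and 1 of 3 neuronal genes reached 1 FPKM, the last being SNAP25 at 4.98 FPKM in shControl and 5.76 FPKM in shFKBP9.

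All 8 genes were detected, at low to moderate levels, and 6 of them reached 1 FPKM in either library. BIRC2, XIAP and BIRC6 were the most abundant, in this order, in both libraries. BIRC3 and DIABLO were the least abundant and lay under 1 FPKM in both. Between the highest and the lowest of the 8 levels there was a 19.8-fold range in shControl and a 24.2-fold range in shFKBP9. In shControl all neighbours in the order BIRC2, XIAP, BIRC6, CASP8, CASP9, APAF1 and DIABLO differed in that the 95% interval of the ratio of their FPKM excluded 1, and for DIABLO and BIRC3 it did not (ratio of FPKM 1.02, 0.714 to 1.44). In shFKBP9 the order of APAF1 and CASP9 and that of BIRC3 and DIABLO were exchanged, and for neither pair did the interval of the ratio exclude 1 there (1.12, 0.922 to 1.36, and 1.23, 0.865 to 1.77). The summed FPKM of the 4 IAPs was 23.5 in shControl and 27.0 in shFKBP9. In RNA from whole cultures, fewer cells that express a gene and less RNA of it per cell cannot be told apart.

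**Figure D1:**
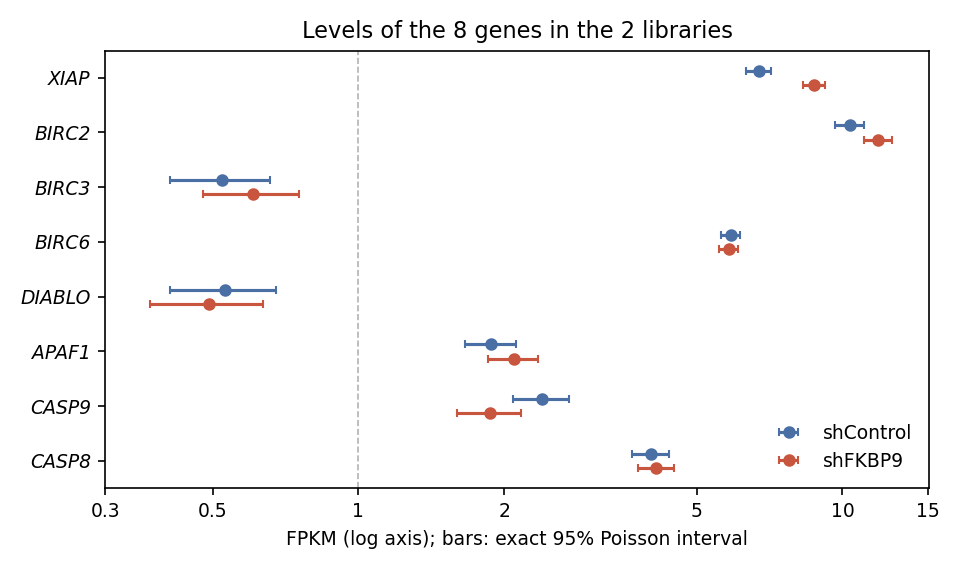
FPKM on a log axis of the 8 genes in the shControl and shFKBP9 libraries, 1 library per condition, with exact 95% counting intervals as bars. BIRC2 (10.3 and 11.8 FPKM) lies furthest to the right in both libraries, and BIRC3 and DIABLO lie to the left of the other 6 genes.

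XIAP had the highest ratio of the 8 genes. XIAP (ENSG00000101966, chromosome X, 123859724 to 123913979, plus strand) was at 6.71 FPKM (6.32 to 7.12, 1097 fragments) in shControl and at 8.74 FPKM (8.28 to 9.22, 1354 fragments) in shFKBP9. The shFKBP9 library was thus 30.2% higher, and the counting intervals of the 2 levels did not overlap. The log2 ratio, computed with 0.1 added to both FPKM values, was 0.38 (0.26 to 0.50). Genes with a number of fragments within 1.5-fold of a given gene show how far these 2 libraries differ at that depth. Among 2577 such genes XIAP lay at percentile 97.7, just above the middle 95% of them (-0.35 to 0.36), and it was the only one of the 8 genes outside that range. The range also covers genes that respond to the shRNA, so it is a description and no test. XIAP has pseudogenes and the related gene BIRC8 with near-identical sequence, on which at most 2 fragments lay in either library. Summing them with XIAP left its ratio within its counting interval, but so few fragments could hardly move it. How reads that match XIAP and a copy alike were handled is not given in the sources used here. The antisense transcript XIAP-AS1 held 3 fragments in shControl and 0 in shFKBP9.

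BIRC2 was the most abundant of the 8. BIRC2 (ENSG00000110330, chromosome 11, 102347211 to 102378670, plus strand) was at 10.3 FPKM (9.66 to 11.1, 849 fragments) in shControl and at 11.8 FPKM (11.1 to 12.6, 922 fragments) in shFKBP9. The shFKBP9 value was 14.5% higher, with a log2 ratio of 0.19 (0.06 to 0.33), which lay within the middle 95% of the 2863 genes of like depth at percentile 86.1. BIRC2 exceeded XIAP 1.54-fold (1.41 to 1.69) in shControl and 1.36-fold (1.25 to 1.48) in shFKBP9.

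BIRC3, the closest relative of BIRC2, lies upstream of it on the same strand with a gap of 7808 bp. BIRC3 (ENSG00000023445, chromosome 11, 102317450 to 102339403) was at 0.522 FPKM (0.407 to 0.658, 71 fragments) in shControl and at 0.604 FPKM (0.478 to 0.754, 78 fragments) in shFKBP9. The log2 ratio of 0.18 was nearly that of BIRC2, but its interval ran from -0.27 to 0.70, so a difference of this size was not detectable at this depth. BIRC2 exceeded BIRC3 19.8-fold (15.6 to 25.6) in shControl and 19.6-fold (15.6 to 25) in shFKBP9, so the ratio of the neighbouring genes was alike in both libraries within counting error.

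BIRC6 had the most fragments of the 8 and thus the narrowest interval. BIRC6 (ENSG00000115760, chromosome 2, 32357028 to 32618899, plus strand) was at 5.88 FPKM (5.61 to 6.15, 1900 fragments) in shControl and at 5.82 FPKM (5.55 to 6.10, 1784 fragments) in shFKBP9. The log2 ratio was -0.01 (-0.11 to 0.08), at percentile 51.7 of 1974 genes of like depth. The levels of XIAP and BIRC6 were 1.14-fold apart in shControl (1.06 to 1.23) and 1.5-fold apart in shFKBP9 (1.40 to 1.61).

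The IAP antagonist DIABLO was scarcely detected. DIABLO (ENSG00000184047, chromosome 12, 122207663 to 122226568, minus strand) was at 0.530 FPKM (0.409 to 0.675, 65 fragments) in shControl and at 0.490 FPKM (0.371 to 0.635, 57 fragments) in shFKBP9. The log2 ratio was -0.09 (-0.65 to 0.42), and the 2 levels overlapped. The other row of this name (ENSG00000284934, 122207662 to 122227534, minus strand) held 0 fragments in both libraries, and since 2179 of the 2257 bases of its canonical transcript are shared with other genes, no upper limit on its level is given. In GENCODE release 44 all 1471 bases (100%) of the canonical DIABLO transcript lie in exons of other genes of the table, ENSG00000284934 among them. Over all exons of DIABLO, 2247 of 6960 bases are shared in this way, so most of the length behind its FPKM is not shared, and which exons its fragments lay in is not known from the table. Fragments in bases that genes share may be left out or counted for each gene, depending on an option of the counting that is not given in the sources used here. Of 717 protein-coding genes with at least 90% of the canonical transcript shared in this way, 92.6% lay under 1 FPKM in both libraries, against 47.0% of the 15961 with under 10% shared. The levels of both DIABLO rows are therefore uncertain, and the part of the overlap in them was not tested. The canonical transcripts of XIAP, BIRC2, BIRC3, CASP8 and CASP9 shared 0 bases with other genes, that of BIRC6 shared 49 of 15687, and that of APAF1 shared 10.4% with ANKS1B on the opposite strand, which held 5 fragments (shControl) and 12 fragments (shFKBP9).

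Of the apoptosome pair, CASP9 had an interval below 0 and APAF1 had an interval that included 0. CASP9 (ENSG00000132906, chromosome 1, 15490832 to 15526534, minus strand), the caspase that the apoptosome activates, was at 2.39 FPKM (2.09 to 2.72, 228 fragments) in shControl and at 1.87 FPKM (1.60 to 2.17, 169 fragments) in shFKBP9. The shFKBP9 value was 78.2% of the control value, with a log2 ratio of -0.34 (-0.65 to -0.06). That is the lowest ratio of the 8, and it lay at percentile 9.67 of 1985 genes of like depth, within their middle 95% (-0.51 to 0.52). APAF1 (ENSG00000120868, chromosome 12, 98645141 to 98735433, plus strand), the scaffold, was at 1.88 FPKM (1.66 to 2.12, 269 fragments) in shControl and at 2.09 FPKM (1.86 to 2.35, 284 fragments) in shFKBP9. Its log2 ratio was 0.15 (-0.09 to 0.40), within the middle 95% of 2275 genes of like depth (-0.45 to 0.45). The ratio of APAF1 to CASP9 was 0.786 (0.656 to 0.942) in shControl, with APAF1 the lower, and 1.12 (0.922 to 1.36) in shFKBP9, and these 2 intervals overlap slightly.

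CASP8, the initiator of death receptor signalling, was alike in both libraries within counting error. CASP8 (ENSG00000064012, chromosome 2, 201233443 to 201287711, plus strand) was at 4.02 FPKM (3.68 to 4.38, 527 fragments) in shControl and at 4.13 FPKM (3.78 to 4.50, 513 fragments) in shFKBP9. The log2 ratio was 0.04 (-0.14 to 0.22), at percentile 58.0 of 2757 genes of like depth. CASP8 exceeded CASP9 1.68-fold (1.44 to 1.97) in shControl and 2.21-fold (1.85 to 2.64) in shFKBP9.

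**Figure D2:**
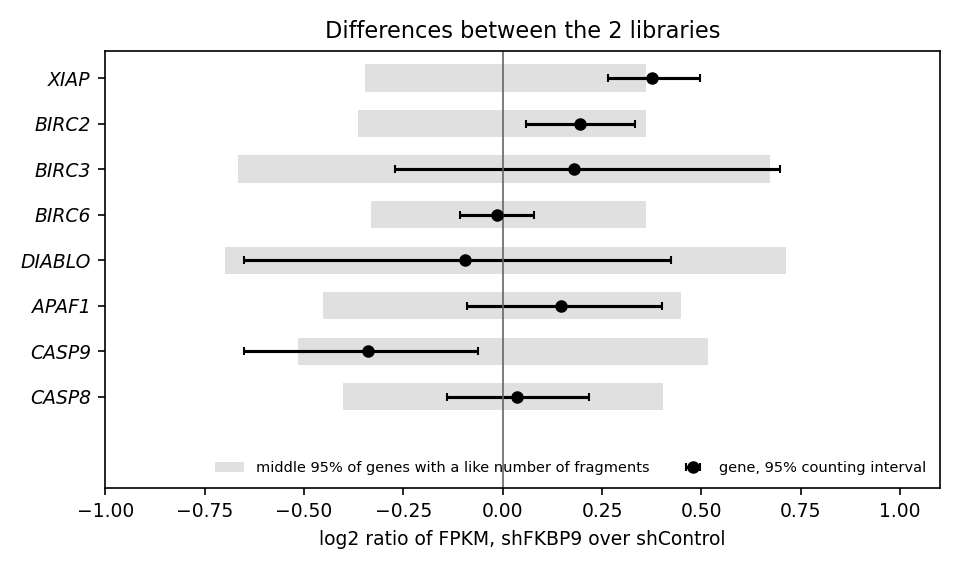
Log2 ratio of FPKM, shFKBP9 over shControl, of the 8 genes, with 95% counting intervals as bars and the middle 95% of genes with a like number of fragments as grey bands. The point of XIAP (0.38) lies just beyond its band, the intervals of XIAP, BIRC2 and CASP9 do not reach 0, and the other 5 include 0.

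The promoters of the 3 genes whose intervals did not reach 0 are printed here. These 3 were picked by those counting intervals alone, all of which include 0 under an assumed dispersion between libraries of 0.01. The promoters come from the RefSeq table of GRCh38.p14, as windows of 300 bases (250 before and 50 after a start), each read 5′ to 3′ on the strand of the gene. The window nearest to the start of the gene in the deposited table was taken, 16 bp from it for XIAP (chrX:123859458-123859757, plus strand), 3 bp for BIRC2 (chr11:102346964-102347263, plus strand) and 1744 bp for CASP9 (chr1:15524741-15525040, minus strand). Capitals mark matches, on either strand, to the GC box GGGCGG, to the CCAAT box CCAAT and to the cyclic AMP response element TGACGTCA, and neighbouring matches may overlap.
XIAP: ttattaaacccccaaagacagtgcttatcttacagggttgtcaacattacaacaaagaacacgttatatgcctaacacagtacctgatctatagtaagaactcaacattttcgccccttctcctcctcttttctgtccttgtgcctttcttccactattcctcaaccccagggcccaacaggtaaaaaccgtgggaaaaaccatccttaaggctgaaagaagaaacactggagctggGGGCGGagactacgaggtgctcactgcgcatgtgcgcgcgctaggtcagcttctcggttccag
BIRC2: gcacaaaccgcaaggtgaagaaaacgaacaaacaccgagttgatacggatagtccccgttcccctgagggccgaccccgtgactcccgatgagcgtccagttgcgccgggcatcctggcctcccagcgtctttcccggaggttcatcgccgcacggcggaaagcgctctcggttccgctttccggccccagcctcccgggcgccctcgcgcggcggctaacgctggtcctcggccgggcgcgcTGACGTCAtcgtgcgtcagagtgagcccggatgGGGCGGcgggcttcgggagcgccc
CASP9: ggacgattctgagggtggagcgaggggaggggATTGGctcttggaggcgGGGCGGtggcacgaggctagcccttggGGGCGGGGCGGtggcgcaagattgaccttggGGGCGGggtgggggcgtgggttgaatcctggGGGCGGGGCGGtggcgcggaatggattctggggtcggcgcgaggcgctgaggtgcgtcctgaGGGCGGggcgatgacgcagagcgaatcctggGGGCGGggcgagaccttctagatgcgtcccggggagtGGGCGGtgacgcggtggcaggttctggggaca

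The 3 windows differ in composition. That of CASP9 had 71.3% G and C and held 9 GC boxes and 1 CCAAT box, that of BIRC2 had 68.7% and held 1 GC box and 1 cyclic AMP response element, and that of XIAP had 48.0% and held 1 GC box. Among all 35116 promoter windows of the table, 45.0% held a GC box, 34.6% a CCAAT box and 1.85% the cyclic AMP response element. Over the 8 genes, all of which matched the table, a GC box stood in the windows of all but BIRC3, a CCAAT box in those of APAF1 and CASP9, and the cyclic AMP response element in that of BIRC2 alone. The letters TGACGTG, found in the unfolded protein response element and present in 1.97% of all windows, and TGATGNAA, found in elements that bind ATF4 with C/EBP proteins and present in 3.62%, stood in 0 of the 8 windows. A match describes the letters of the window and not a bound site.

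Across the 8 genes the differences were small. Of the 6 that reached 1 FPKM, 0 were 2-fold higher and 0 were 2-fold lower, where 2.02% and 2.19% of 12741 such genes were. Among the 10346 protein-coding genes of that kind, to which all 8 belong by biotype, the shares were 0.213% and 0.193%. The interval lay above 0 for 2 of the 8 (XIAP and BIRC2), as it did for 13.8% of 17105 genes with at least 10 fragments, and below 0 for 1 (CASP9), as it did for 16.9%. For protein-coding genes these shares were 16.7% and 20.3% of 13040. The other 5 intervals included 0. Counts this small do not set the 8 genes apart from all genes. The value was higher in shFKBP9 for 5 genes and lower for 3, and the log2 ratios ran from -0.34 to 0.38 with a median of 0.09, beside -0.02 for all genes with at least 1 FPKM. Of the latter, the middle 95% ran from -0.86 to 0.92. With an assumed dispersion of 0.01 between libraries added to the counting error, the intervals of XIAP, BIRC2 and CASP9 all included 0, and that of CASP9 also did at the 99% level.

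**Figure D3:**
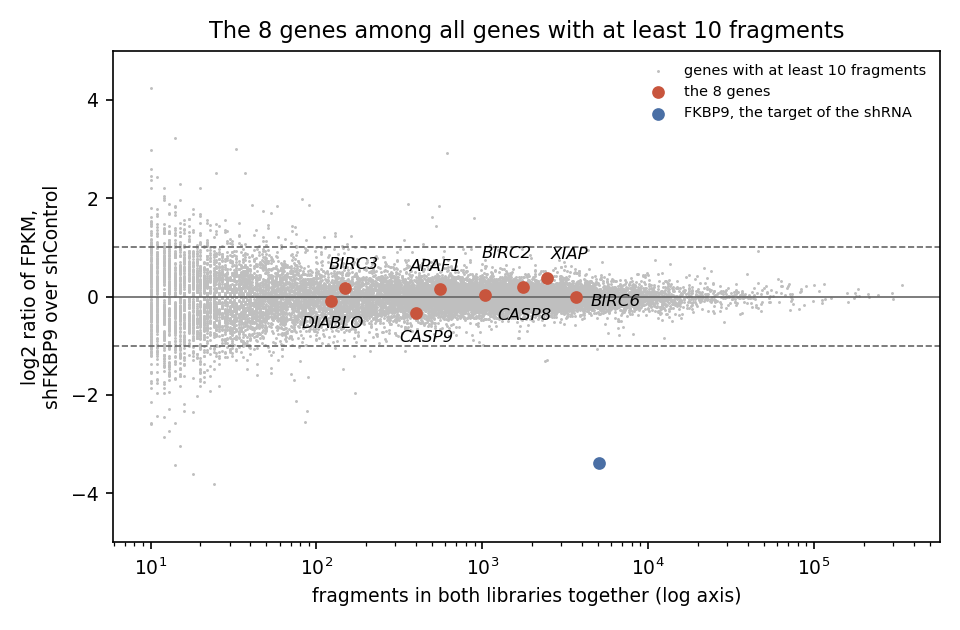
Log2 ratio of FPKM, shFKBP9 over shControl, against the number of fragments in both libraries together (log axis), for the 17105 genes with at least 10 fragments. Dashed lines mark 2-fold, and the 8 genes lie inside them among the bulk of the genes, whereas FKBP9 stands at -3.38.

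The other genes of the pathway, 57 in 10 lists, gave intervals on both sides of 0. Of the 49 with at least 10 fragments the interval lay above 0 for 9 (18.4%) and below 0 for 10 (20.4%), near the 16.7% and 20.3% of all protein-coding genes, so these counts do not set the lists apart. In addition, 0 of the 42 that reached 1 FPKM passed 2-fold in either direction. The median log2 ratio of the 49 was -0.01. With the assumed dispersion of 0.01 the interval still lay above 0 for 3, CFLAR and TNFSF10 among them, and below 0 for 1, MAP3K14, so every other interval that excluded 0 in the lists described next, that of CASP9 included, is lost under that setting. The counts of each list given next are to be read beside the 16.7% above 0 and 20.3% below 0 of all protein-coding genes.

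In the IAP family the abundant member was BIRC5 (survivin), an IAP that acts in chromosome segregation, and it was outside the 8. BIRC5 was at 48.5 FPKM in shControl and at 48.3 FPKM in shFKBP9, with a log2 ratio of -0.01 (-0.08 to 0.06). Of the 8 family members, 6 had at least 10 fragments, and the interval lay above 0 for 2 of them and included 0 for 4. NAIP, which has near-identical copies, held 8 fragments in shControl and 16 in shFKBP9, BIRC7 held 4 and 0, and BIRC8 held 0 in both.

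Of the 4 initiators the interval lay above 0 for 0 and below 0 for 1, CASP9, and the level of CASP2 (5.75 and 5.69 FPKM) and of CASP10 (0.589 and 0.544 FPKM) did not differ beyond counting error. Among 8 substrates that executioner caspases cleave, the interval lay above 0 for 1 (GSN) and below 0 for 5, beside 16.7% and 20.3% of all protein-coding genes, and none of these kept its side of 0 with the assumed dispersion of 0.01. Of the 5, SPTAN1 (28.4 and 22.2 FPKM, -0.35) and PARP1 (34.7 and 30.5 FPKM, -0.19) had the lowest ratios. Of 5 inflammatory and other caspases, 2 had at least 10 fragments, and the interval lay above 0 for CASP4 (1.86 and 2.28 FPKM, 0.28) and included 0 for CASP1 (22 and 11 fragments).

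Among the partners of DIABLO and APAF1, HTRA2, a mitochondrial protease that also binds IAPs, was at 11.0 FPKM in shControl and at 9.16 FPKM in shFKBP9, with a log2 ratio of -0.26 (-0.44 to -0.08). CYCS, which encodes cytochrome c and has many pseudogenes with which reads may be shared, was at 47.6 and 50.2 FPKM, with 0.08 (0.01 to 0.14). XAF1, a XIAP antagonist, held 1 and 5 fragments, too few for a comparison. Of the 7 genes in the list of antagonists and mitochondrial release, DIABLO included, 6 had at least 10 fragments, and the interval lay above 0 for CYCS, below 0 for HTRA2 and included 0 for 4.

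Around CASP8, CFLAR, the catalytically inactive relative that restrains it, was at 2.33 FPKM in shControl and at 3.38 FPKM in shFKBP9, with a log2 ratio of 0.52 (0.42 to 0.66). Its adaptor FADD was at 24.5 and 23.3 FPKM, and the interval included 0 (-0.22 to 0.07). Of the 7 adaptor genes, CASP8 included, 6 had at least 10 fragments, and CFLAR was the only one of these whose interval excluded 0. Of 11 death receptors and ligands, 10 had at least 10 fragments, and the interval lay above 0 for 2 and below 0 for 1. The ligand TNFSF10 (TRAIL) was at 1.38 FPKM in shControl (87 fragments) and at 2.45 FPKM in shFKBP9 (146 fragments), with 0.78 (0.43 to 1.22). Its decoy receptor TNFRSF10D was at 95.3 and 119.7 FPKM, with 0.33 (0.28 to 0.38). Its death receptor TNFRSF10B was at 24.7 and 25.6 FPKM, and the interval included 0 (-0.04 to 0.13). TNFRSF21 was at 17.5 and 13.4 FPKM, with -0.39 (-0.52 to -0.26).

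BIRC2 and BIRC3 work with TRAF proteins to hold down MAP3K14 (NIK), the kinase of the noncanonical NF-kappaB pathway. MAP3K14 was at 6.82 FPKM in shControl and at 4.99 FPKM in shFKBP9, with a log2 ratio of -0.44 (-0.62 to -0.28). TRAF2 (8.90 and 8.13 FPKM) and TRAF3 (12.5 and 12.1 FPKM) had intervals that included 0. RNF31, a subunit of the linear ubiquitin ligase that acts after BIRC2 at TNF receptors, was at 5.73 and 4.27 FPKM, with -0.42 (-0.62 to -0.23). Of the 13 genes in this list the interval lay above 0 for 1 (CYLD, a deubiquitinase), below 0 for 3 and at neither side for 9.

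**Figure D4:**
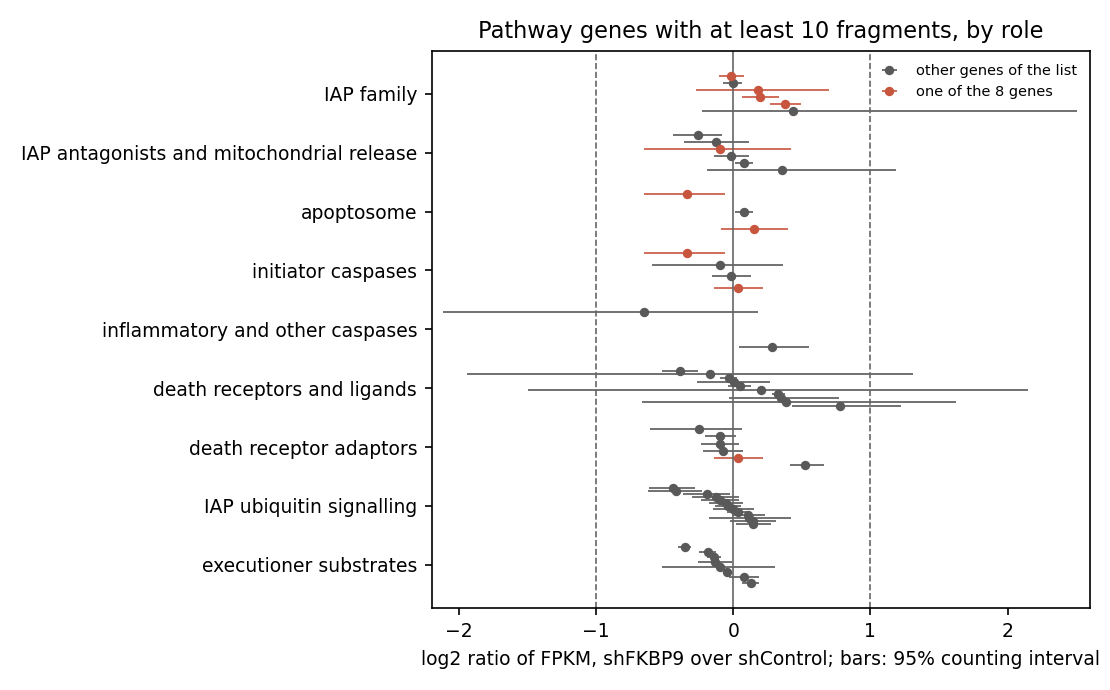
Log2 ratio of FPKM, shFKBP9 over shControl, with 95% counting intervals as bars, of the 8 genes and genes of 9 of the lists with at least 10 fragments, grouped by list. Each list has 1 point per gene, not named on the plot, and CYCS, CASP8, CASP9 and RIPK1 are drawn in more than 1 list. CFLAR (0.52) and TNFSF10 (0.78) lie to the right of XIAP (0.38), and MAP3K14 (-0.44) lies to the left of CASP9 (-0.34). Other points also lie beyond XIAP and CASP9, among them NAIP (0.43) on the right and CASP1 (-0.65), the point furthest left, both with few fragments.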

How the data were processed

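RNA was extracted from SF-539 cells with TRIzol, and libraries were made with the NEBNext Ultra RNA kit. Per the labels, the authors aligned reads to hg38 with HISAT2 2.0.5, counted them with featureCounts 1.5.0-p3 and used edgeR. The authors deposited FPKM values for 1 library per condition, with identifiers, positions and gene lengths. The handling of strand and of shared reads and the annotation release are not given in the sources used here. The table held 0 further columns of values per library and no comparisons by the authors.

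Fragments were recovered from FPKM and gene length, and 100% of values were whole multiples of 1 fragment within 0.01. On a gene of 1 kilobase 1 fragment is worth 0.0552 FPKM in shControl and 0.0582 in shFKBP9. The log2 ratio used FPKM with 0.1 added, and the count past 2-fold took genes that reached 1 FPKM in a library. For ratios, 95% Clopper-Pearson intervals, which are exact, were taken of the fragment share and exact Poisson intervals for levels, without that addition. The alternatives were other additions, scalings, minimums, levels and an assumed dispersion, protein-coding genes alone, and the sum over copies. Recovery, counts and intervals were tested on simulated data. Exon overlap was computed from GENCODE release 44, and promoters and motifs were read from RefSeq. SEPTIN4 was found under SEPT4. Scripts ran in Python 3.11.15, with matplotlib 3.10.9 for figures, scipy 1.17.1 for intervals, and pandas 2.3.3 and numpy 2.4.6 for tables.

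The genes named are FKBP9, the 8 genes, the genes of the lists, cell type markers, and genes that overlap or copy one of the 8. This rule does not cover IKBIP, TMEM123, STAG2 and YIPF4, whose values had been seen when they were chosen. The 8 genes and the lists were chosen with earlier results of these data known. Some genes of the lists are not reported here.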

Additional observations from a re-analysis of the deposited data

How the results depend on the processing

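All 34 log2 ratios of the 8 genes under other additions to FPKM (1 or 0.01), scaling by the median ratio, rescaling to TPM and sums over copies stayed within their counting intervals, and 0 of the 8 passed 2-fold under any alternative run. The median log2 ratio and the log2 shift by TPM were each -0.02, and the copies held at most 2 fragments in either library. Scalings and sums this small could hardly take a ratio out of its interval, so these settings say little about stability. The counts of genes by interval did change. With an assumed dispersion of 0.01, the genes of the 8 above 0 numbered 0 in place of 2 and those below 0 numbered 0 in place of 1. The other list genes above numbered 3 in place of 9 and below 1 in place of 10, and all genes above numbered 457 in place of 2369 and below 496 in place of 2895. The 99% interval left 0 of the 8 below 0. The background of genes past 2-fold, 258 higher and 279 lower, was 138 and 153 with 1 added to FPKM, 2022 and 1993 with no minimum, 40 and 41 where each library had to reach 1 FPKM, and 22 and 20 for protein-coding genes. With no minimum 1 other list gene, BIRC7 with 4 fragments, passed 2-fold. No paired analysis was possible because each condition has 1 library and the result comes from no test. BIRC3 and DIABLO had at most 78 fragments in a library, and differences within their intervals were not detectable.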

Other observations

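Of 14 next protein-coding neighbours of the 8 genes, 11 had at least 10 fragments, and the interval lay above 0 for 3, below 0 for 1 and included 0 for 7, beside 16.7% above 0 and 20.3% below 0 of all protein-coding genes. Counts this small do not set the neighbours apart, and they were not recomputed with the assumed dispersion. The 4 whose intervals excluded 0 are given here. IKBIP, whose start lies 28 bp from that of APAF1 on the opposite strand, was at 8.56 FPKM in shControl and at 11.7 FPKM in shFKBP9, with a log2 ratio of 0.44 (0.30 to 0.60), beside 0.15 (-0.09 to 0.40) for APAF1. TMEM123, the next protein-coding gene after BIRC2, was at 15.4 and 12.6 FPKM, with -0.29 (-0.41 to -0.17), beside 0.19 (0.06 to 0.33) for BIRC2. STAG2, next to XIAP, was at 8.76 and 9.70 FPKM, with 0.15 (0.04 to 0.26), beside 0.38 (0.26 to 0.50) for XIAP. YIPF4, next to BIRC6, was at 4.33 and 5.18 FPKM, with 0.25 (0.13 to 0.39), beside -0.01 (-0.11 to 0.08) for BIRC6.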
